A study of Mus musculus with 8 samples.

Results

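Oligodendrocytes, the cells that wrap axons in myelin, are represented here by 9 genes of their lineage, measured by poly-A RNA sequencing in cultures of Nuak1 KO and WT mouse neurons. The genes were chosen by symbol: Pdgfra, Cspg4, Olig1, Olig2, Sox10, Gpr17, Bcas1, Mbp and Cnp, ordered from precursor to myelinating markers. All 9 had a count in every library, out of 32726 genes in the table, and all 9 passed the filter on low counts that left 16272 genes for testing. The study prepared cortical neurons from embryos, WT or carrying a constitutive loss of Nuak1, a kinase related to AMPK, and collected them after 5 days in serum-free medium, which limits the growth of astrocytes. The mice were kept on a C57Bl/6JRj background, and KO animals die at birth. The loss is not limited to neurons, so the glia of a KO culture carry it too.

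The 4 KO and 4 WT libraries take their numbers, 1 to 4 within each genotype, from the labels. Methods of the study give 4 animals per condition, but the labels do not say that each library is a separate culture, so p-values measure the spread between these libraries only. As tissue, the labels name either cortex or hippocampus for all 8, and no region was assigned here. Sequencing lane A held KO1, KO4, WT1 and WT3, and lane B held KO2, KO3, WT2 and WT4. The labels also give a strain: BJ for KO1, KO2 and KO3, BK for KO4, WT2 and WT4, BO for WT1 and BQ for WT3. What these letters stand for is not given in the sources used here. Totals ran from 31247078 to 67155004 counts per library, so that 3 counts, the upper limit a count of 0 allows, correspond to at most 0.0960 CPM. CPM is the count of a gene divided by the total of its library and scaled so that all libraries sum to the same value. Nuak1 itself lay between 1.96 and 2.72 CPM in KO and between 51.6 and 82.6 CPM in WT, as the labels have it.

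KO1 and WT1, of opposite genotype, stood apart from the other libraries along the GC content of the transcripts. The genotype difference of each of the 9 genes is therefore also given without this pair. No library duplicated another.

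Oligodendrocyte precursors arise from ventral and later dorsal progenitors of the forebrain and divide under platelet-derived growth factor, which they sense through PDGFRA. They express the transcription factors OLIG1, OLIG2 and SOX10 and the surface proteoglycan NG2, encoded by Cspg4. On commitment they lose PDGFRA and NG2, pass through a stage marked by GPR17 and BCAS1, and then make the proteins of compact and non-compact myelin, among them MBP and CNP. In the mouse cortex most of this maturation follows birth.

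The positions of the genes, from the RefSeq table of the GRCm38.p6 build, were chr5:75151322-75198206 for Pdgfra, chr9:56865104-56899870 for Cspg4, chr15:79154913-79164490 for Sox10, chr2:170343973-170427911 for Bcas1 and chr11:100574909-100591875 for Cnp. Olig2 (chr16:91225550-91228677) and Olig1 (chr16:91269769-91271939) are neighbours on chromosome 16, with 41091 bp from the end of Olig2 to the start of Olig1.

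RefSeq promoters were matched for 4 of the 9 genes. The stretch from 250 to 51 bases upstream of the start is shown for each, because these genes cover the precursor receptor, the lineage factor, the precursor proteoglycan and a myelin enzyme whose counts are compared below. In GRCm38.p6 the windows are chr5:75152001-75152200 for Pdgfra, chr16:91225300-91225499 for Olig2, chr9:56864854-56865053 for Cspg4 and chr11:100574689-100574888 for Cnp, all on the plus strand. The start is that of the promoter table, which for Pdgfra and Cnp lies downstream of the first base of the gene as listed above. Capitals mark every E-box (CANNTG), the motif bound by OLIG proteins and other basic helix-loop-helix factors, and every SOX core (ACAAAG or ACAATG), searched on both strands, so that CATTGT is a SOX core read from the other strand. No E-box overlaps a SOX core here. They are written 5′ to 3′:
Pdgfra: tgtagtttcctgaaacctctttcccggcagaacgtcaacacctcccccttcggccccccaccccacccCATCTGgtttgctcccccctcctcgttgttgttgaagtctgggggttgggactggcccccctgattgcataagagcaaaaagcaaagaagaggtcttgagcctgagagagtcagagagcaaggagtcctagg
Olig2: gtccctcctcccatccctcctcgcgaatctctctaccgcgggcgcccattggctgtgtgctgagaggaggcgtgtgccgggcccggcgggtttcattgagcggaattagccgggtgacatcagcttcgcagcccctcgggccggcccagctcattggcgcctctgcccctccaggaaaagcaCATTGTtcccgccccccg
Cspg4: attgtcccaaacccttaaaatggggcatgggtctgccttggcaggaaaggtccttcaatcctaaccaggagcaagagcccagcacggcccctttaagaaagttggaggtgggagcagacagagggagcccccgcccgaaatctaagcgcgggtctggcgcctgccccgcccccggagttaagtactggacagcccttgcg
Cnp: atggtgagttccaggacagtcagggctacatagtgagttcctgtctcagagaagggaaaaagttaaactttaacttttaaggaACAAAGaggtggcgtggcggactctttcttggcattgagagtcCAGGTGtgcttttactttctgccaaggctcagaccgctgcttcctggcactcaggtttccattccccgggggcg

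An E-box was found in the Pdgfra and Cnp windows and in 59.0% of the same windows of all 32851 RefSeq promoters. A SOX core was found in the Olig2 and Cnp windows and in 21.2% of all windows. The windows differed in base composition. GC content was 67% for Olig2, 60% for Cspg4, 56.5% for Pdgfra and 50.5% for Cnp, against a median of 51.5% over all promoters. CpG dinucleotides numbered 17, 9, 4 and 5 in the same order, against a median of 4. The letters describe the windows only and say nothing about which factors bind there.

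Levels were compared between genes as CPM per kilobase of exon, with exon lengths from the GENCODE vM1 annotation. The 3 highest of the 9 were Pdgfra, Olig2 and Olig1, whereas Cspg4, also a gene of precursors, was among the lowest. Pdgfra was highest, at 51.4 ± 9.40 CPM per kilobase (SD, n = 8 libraries), and lay above Olig2 in 8 of 8 libraries. Olig2 followed at 29.6 ± 3.54 CPM per kilobase (SD, n = 8) and Olig1 at 24.4 ± 7.39 (SD, n = 8), with Olig2 the higher in 7 of 8 libraries. Gpr17 came next, at 12.8 ± 3.05 CPM per kilobase (SD, n = 8), below Olig1 in 7 of 8 libraries and above Sox10 in 8 of 8.

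The other 5 genes formed the lower end of the order. Sox10 was at 6.52 ± 2.14 CPM per kilobase (SD, n = 8) and Cnp at 5.21 ± 0.974 (SD, n = 8), with Sox10 the higher in 6 of 8 libraries. Bcas1 was at 3.78 ± 2.11 CPM per kilobase (SD, n = 8), below Cnp in 6 of 8. Cspg4 at 2.54 ± 0.899 and Mbp at 2.36 ± 0.586 CPM per kilobase (SD, n = 8 each) closed the order. Bcas1 and Cspg4 each exceeded their next neighbour in 4 of 8 libraries, so the order of the last 3 genes is not settled by these data. On this measure Cspg4, a precursor marker, sat beside Mbp and far below Pdgfra, with which it is used to define the same cells. Exon length here joins all annotated exons of a gene. The longest protein-coding transcript is shorter for Mbp (4797 against 8403 bp), Cnp (2357 against 3639 bp) and Bcas1 (2952 against 3775 bp). It is as long for Cspg4 (8050 bp) and Sox10 (2713 bp), so the order of these 5 genes depends on the length used.

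**Figure D1:**
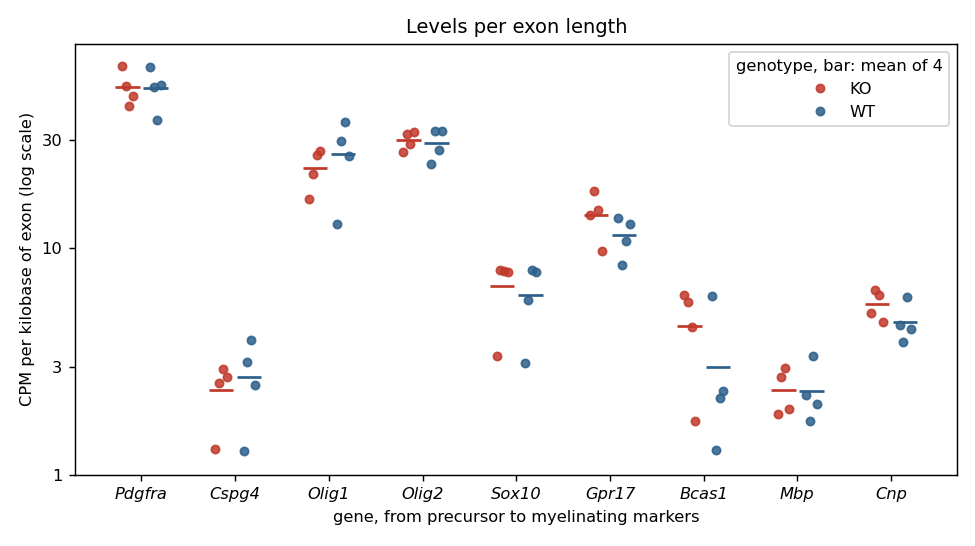
Level of each gene in CPM per kilobase of exon (log axis), with 1 point per library and a bar at the mean of the 4 KO (red) and 4 WT (blue) libraries. Pdgfra lies highest in both genotypes and Mbp and Cspg4 lowest, and the red and blue points overlap for every gene.

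The genotype comparison asks whether the loss of Nuak1 altered the transcripts of this glial lineage in a culture made to study neurons. For none of the 9 genes did the difference between KO and WT pass the test. By edgeR's quasi-likelihood test with Benjamini-Hochberg adjustment over all 16272 genes, 0 of the 9 passed an adjusted p of 0.05, where 0.0492% of all tested genes did. At an unadjusted p under 0.05 it was 0 of 9, where 10.6% of all tested genes passed. Leaving out libraries moved this count, to 3 of 9 without KO4, where 9.72% of all tested genes passed. It was 1 of 9 without KO1, WT1, WT3 or WT4, where 7.55%, 5.45%, 15.6% and 13.3% of all tested genes passed. DESeq2 and limma-voom with the same covariate also called 0 of 9. A looser threshold, an absolute log2 fold change above 0.25 with an unadjusted p under 0.05, was met by 0 of 9 and by 5.75% of all tested genes, namely 2.22% of them higher and 3.53% lower in KO. The fitted log2 fold change, KO over WT, was positive for 5 of the 9, where 53.8% of all genes were positive, with a median of 0.016 beside 0.015 over all genes. The CPM of the 4 KO and the 4 WT libraries overlapped for each of the 9, whereas the groups did not overlap for 2.40% of all tested genes. The 9 genes summed to 589 to 683 CPM in KO libraries and 561 to 662 in WT libraries. Pdgfra alone gave 287 to 432 of these CPM in KO libraries and 248 to 428 in WT libraries, so the sum says little of the less abundant genes. In bulk RNA, fewer cells of a type and less RNA per cell cannot be told apart, so this holds for the transcripts and not for the number of precursors.

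**Figure D2:**
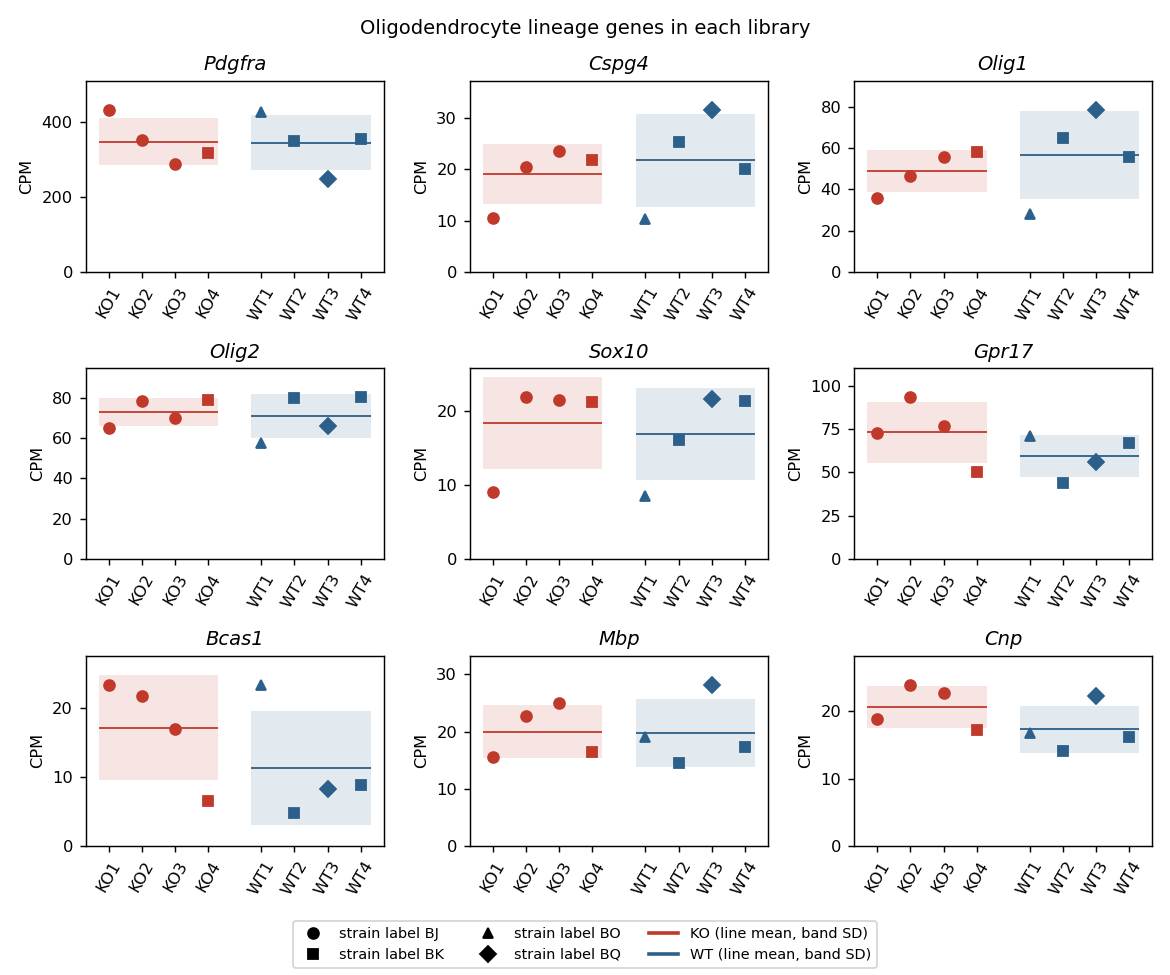
CPM of each gene (linear axes from 0) in the 4 KO (red) and 4 WT (blue) libraries, with the shape of the point giving the strain label, the line the mean and the band 1 SD. KO1 and WT1 share low Cspg4, Olig1 and Sox10 and high Pdgfra and Bcas1, and no gene separates red from blue.

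Pdgfra, the receptor through which precursors are kept dividing, was at 432, 353, 287 and 318 CPM in KO1 to KO4. In WT1 to WT4 it was at 428, 348, 248 and 355 CPM. The highest library of each genotype was the first, the lowest the third, and the ranges overlapped almost throughout. KO averaged 348 ± 62.4 CPM and WT 345 ± 73.9 CPM (SD, n = 4 each). The log2 fold change was −0.04 (SE 0.095, 95% confidence interval −0.25 to 0.17, edgeR adjusted p = 0.911), and −0.10 without KO1 and WT1.

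Cspg4, the gene of the NG2 proteoglycan, gave 10.5, 20.4, 23.7 and 21.9 CPM in KO1 to KO4 and 10.2, 25.4, 31.6 and 20.0 CPM in WT1 to WT4. KO1 and WT1 lay at about the same level, well under all 6 other libraries. KO averaged 19.1 ± 5.91 CPM and WT 21.8 ± 9.08 CPM (SD, n = 4 each). The log2 fold change was −0.15 (SE 0.093, interval −0.35 to 0.06, edgeR adjusted p = 0.596), and −0.11 without the pair.

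Olig1 and Olig2 encode related helix-loop-helix factors, of which OLIG2 specifies the lineage and OLIG1 acts mainly in its maturation. Olig1 was at 36.0, 46.3, 56.0 and 58.4 CPM in KO1 to KO4 and at 27.9, 64.8, 78.6 and 55.7 CPM in WT1 to WT4. WT1 and KO1 were lowest, and WT held both the lowest and the highest library. Its log2 fold change was −0.14 (SE 0.10, interval −0.37 to 0.08, edgeR adjusted p = 0.636), and −0.20 without the pair. It was −0.27 without KO1 alone and −0.24 without WT1 alone.

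Olig2 had the smallest SD for its mean of the 9, at 64.9, 78.4, 70.3 and 79.3 CPM in KO1 to KO4 and 57.6, 80.1, 66.3 and 80.3 CPM in WT1 to WT4. KO averaged 73.2 ± 6.85 CPM and WT 71.1 ± 11.1 CPM (SD, n = 4 each). The log2 fold change was 0.02 (SE 0.095, interval −0.20 to 0.23, edgeR adjusted p = 0.967), and −0.053 without the pair. Although the genes are neighbours, they did not keep a fixed ratio. Per 100 Olig2 counts there were 55.5 to 79.7 Olig1 counts in KO and 48.4 to 118.6 in WT, lowest in WT1 and highest in WT3.

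Sox10, which encodes the factor that drives myelin genes and also marks neural crest derivatives such as Schwann cells, was at 9.08, 21.9, 21.5 and 21.3 CPM in KO1 to KO4. In WT1 to WT4 it was at 8.48, 16.1, 21.7 and 21.4 CPM. Again KO1 and WT1 stood far below the rest, and 5 libraries fell close together at the upper end. The log2 fold change was 0.14 (SE 0.11, interval −0.12 to 0.39, edgeR adjusted p = 0.693), and 0.12 without the pair. It was 0.049 without KO2, 0.073 without WT2 and 0.23 without WT4. Per 100 Pdgfra counts there were 2.10 Sox10 counts in KO1 and 1.98 in WT1, against 4.62 to 8.75 in the other 6 libraries.

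Gpr17 encodes a receptor that marks committed precursors and is lost as they mature. It was at 72.6, 93.3, 76.6 and 50.4 CPM in KO1 to KO4 and at 71.0, 43.9, 56.0 and 66.8 CPM in WT1 to WT4. The 3 highest values were those of KO libraries, but KO4 was lower than 3 of the 4 WT libraries. KO averaged 73.2 ± 17.7 CPM and WT 59.4 ± 12.1 CPM (SD, n = 4 each). The log2 fold change was 0.26 (SE 0.18, interval −0.14 to 0.67, edgeR adjusted p = 0.614). Without KO1 and WT1 it was 0.19, and it was 0.12 without KO2 and 0.17 without WT2.

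Bcas1, expressed as precursors turn into early myelinating cells, varied most. It was at 23.4, 21.9, 17.0 and 6.50 CPM in KO1 to KO4 and at 23.4, 4.85, 8.27 and 8.87 CPM in WT1 to WT4. The libraries fell into a high set, KO1, KO2, KO3 and WT1, and a low set of the other 4, so each genotype had a library among the other's. KO averaged 17.2 ± 7.64 CPM and WT 11.3 ± 8.21 CPM (SD, n = 4 each). Of the 9 genes it had the largest fitted difference, a log2 fold change of 0.66, but also the widest interval, −0.11 to 1.43 (SE 0.34, edgeR adjusted p = 0.527). The value was 0.68 without KO1 and WT1.

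The myelin genes came last. Mbp encodes myelin basic protein, and its locus also gives the golli transcripts that neurons can make, which a count per gene does not separate. It was at 15.6, 22.7, 25.0 and 16.5 CPM in KO1 to KO4 and at 19.0, 14.5, 28.2 and 17.3 CPM in WT1 to WT4. No order by genotype was seen, with WT holding both extremes, and the log2 fold change was −0.01 (SE 0.20, interval −0.47 to 0.46, edgeR adjusted p = 0.994), and 0.19 without the pair.

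Cnp, the gene of the phosphodiesterase of non-compact myelin, was at 18.8, 23.9, 22.6 and 17.2 CPM in KO1 to KO4 and at 16.7, 14.1, 22.2 and 16.1 CPM in WT1 to WT4. Every KO library was above 3 of the 4 WT libraries and only KO2 and KO3 exceeded WT3. KO averaged 20.6 ± 3.15 CPM and WT 17.3 ± 3.48 CPM (SD, n = 4 each). The log2 fold change was 0.22 (SE 0.14, interval −0.09 to 0.54, edgeR adjusted p = 0.591). It was 0.30 without the pair, 0.36 without WT3 and 0.14 without WT2. Exons of Cnp overlap those of Dnajc7 on the opposite strand, which was at 195 to 244 CPM, and the strand setting of the counting is not given in the sources used here, so reads in the shared stretch are uncertain. The same holds for Gpr17 and its partner Lims2, at 2.40 to 5.52 CPM.

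**Figure D3:**
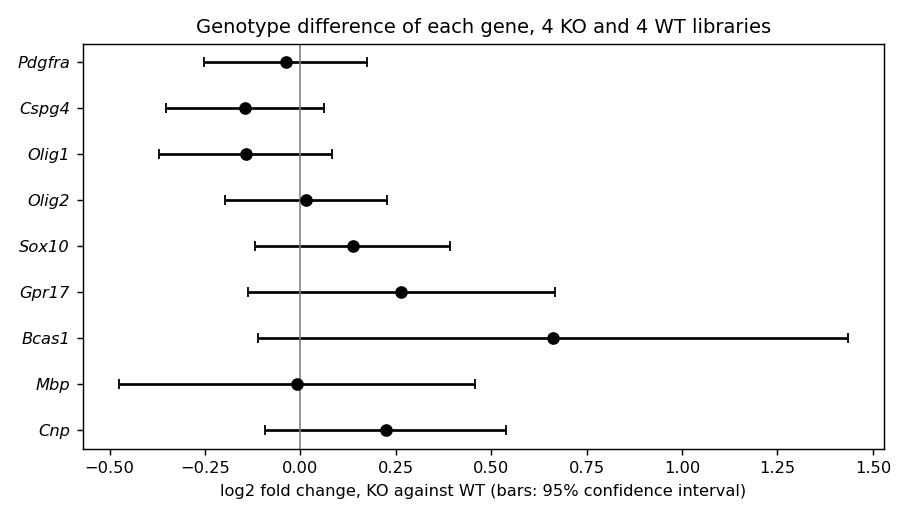
Fitted log2 fold change of each gene, KO against WT, with its 95% confidence interval from edgeR's quasi-likelihood fit on 4 KO and 4 WT libraries. Every interval spans 0, and it is narrowest for Cspg4 and widest for Bcas1.

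The intervals give the differences that the data can still hold under this fit, which has 1 surrogate variable, a term for unwanted variation. For Pdgfra, Cspg4, Olig1 and Olig2 the bounds lay between −0.37 and 0.23 on the log2 scale, whereas for Bcas1 the upper bound was 1.43.

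Within lanes the values spread more widely. On lane B alone, KO2 and KO3 against WT2 and WT4, Cnp passed the threshold, with a log2 fold change of 0.56 (edgeR adjusted p = 0.0386), the only 1 of the 9 to do so, where 0.588% of all tested genes passed. At an unadjusted p under 0.05 it was 5 of 9, beside 11.2% of all tested genes. Bcas1 was then at 1.46 (edgeR adjusted p = 0.156), Gpr17 at 0.56 (0.369), Mbp at 0.53 (0.0569) and Olig1 at −0.31 (0.389). On lane A alone, KO1 and KO4 against WT1 and WT3, Cnp was at −0.13, Bcas1 at −0.12, Gpr17 at −0.073 and Mbp at −0.57, of which none passed. The lane B libraries are also BJ against BK by strain label, so there genotype and strain label cannot be told apart.

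By strain label, 3 of the 9 genes, all of the committed or myelinating stages, were higher in BJ than in BK, while Olig2 was lower and the other 5 overlapped. The 3 BJ libraries, all KO, lay above all 3 BK libraries, of which 1 is KO and 2 are WT, for Gpr17 (72.6 to 93.3 against 43.9 to 66.8 CPM), Bcas1 (17.0 to 23.4 against 4.85 to 8.87 CPM) and Cnp (18.8 to 23.9 against 14.1 to 17.2 CPM). Olig2 was the reverse, at 64.9 to 78.4 CPM in BJ and 79.3 to 80.3 CPM in BK. Among all tested genes 10.7% had every BJ library above every BK library, and 3.5% the reverse, and these counts are given as a description with no test. The single BK library of KO genotype, KO4, was among the BK values for Bcas1, at 6.50 CPM against 4.85 in WT2 and 8.87 in WT4. With the strain label as a term in the fit, the log2 fold change was 0.013 for Bcas1, −0.16 for Gpr17 and 0.13 for Cnp, and 0 of the 9 passed. That fit rests on KO4 against WT2 and WT4, since BJ holds only KO and BO and BQ only WT.

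Other genes of these stages, from a list of 9 committed precursor genes, followed the same order of labels in 5 of 9, where 10.7% of all tested genes did. Enpp6, an early marker of newly formed oligodendrocytes, was at 7.10, 3.32, 3.13 and 0.667 CPM in KO1 to KO4 and at 8.22, 0.566, 0.839 and 1.42 CPM in WT1 to WT4. The 3 BJ libraries and WT1 were high and the 3 BK libraries and WT3 low, as for Bcas1. The other 4 were Tcf7l2, Itpr2, Bmp4 and Zfp488, named here, like the myelin genes of the next paragraph that share this order, after their values were seen. None of the 9 passed the adjusted threshold between genotypes. Bmp4, a secreted ligand that holds back precursor differentiation and is made by committed precursors, was the 1 gene at an unadjusted p under 0.05, with a log2 fold change of 0.82 (SE 0.33, edgeR adjusted p = 0.433). Over all tested genes 10.6% were under that unadjusted p. Enpp6 was at 0.77 (SE 0.44, edgeR adjusted p = 0.564). The most abundant of the list, Sirt2 and Tns3, were at 0.10 and 0.15. The median of the list was 0.15, with 7 of 9 positive, where 53.8% of all tested genes were.

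Of 17 further myelin genes, 11 passed the filter and 3 of these followed the order of labels: Mag, Myrf and Fa2h. Over all tested genes the share was 10.7%. Myrf, the gene of a factor that myelinating cells need for their myelin genes, was at 5.92, 4.89, 4.66 and 2.35 CPM in KO1 to KO4 and at 5.76, 1.61, 4.43 and 4.24 CPM in WT1 to WT4. KO1 and WT1 were highest and WT2 lowest, and the log2 fold change was 0.10 (SE 0.33, edgeR adjusted p = 0.933). Mag, an adhesion protein of myelin, was at 1.04 (SE 0.48, edgeR adjusted p = 0.484) and Fa2h, an enzyme of myelin lipids, at 0.73 (SE 0.35, edgeR adjusted p = 0.496), both at low levels. The most abundant of the list, Gpr37 and Ugt8a, were at −0.16 and −0.13. None of the 11 passed the adjusted threshold, and 0 were at an unadjusted p under 0.05, with a median of −0.0093 and 5 of 11 positive.

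Some genes of late myelin were near the limit of detection. Opalin had 1 count in KO1 and 1 in WT1 and none in the other 6 libraries, Mobp had 3 to 6 counts per library, and Nkx6-2 had 0 counts in all 8, which allows up to 0.0447 to 0.0960 CPM, depending on the library. Mog lay between 0.064 and 0.445 CPM. Others of the list were higher, such as Cldn11, at 0.608 to 2.05 CPM, and Ermn, at 0.119 to 2.71 CPM. Mbp, at 14.5 CPM or more in every library, was well above these levels.

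**Figure D4:**
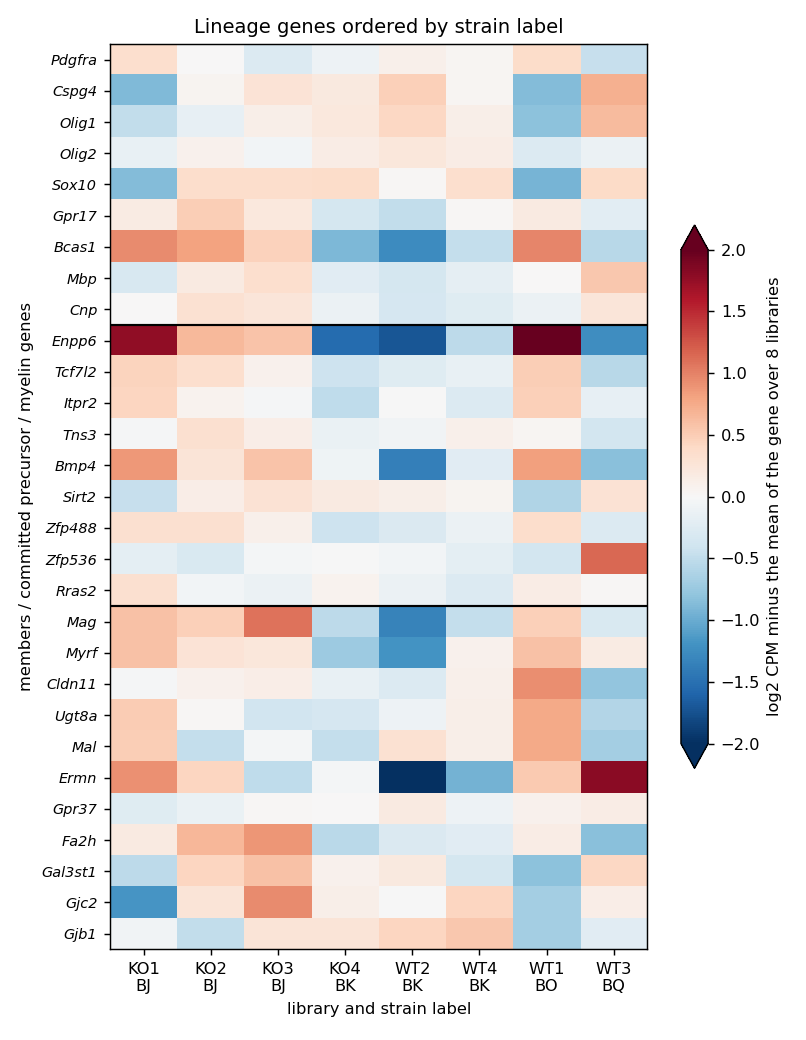
Log2 CPM of each gene minus its mean over the 8 libraries, for the 9 genes, the committed precursor genes and the tested myelin genes, with libraries ordered by strain label (BJ, BK, BO, BQ). Bcas1 and Enpp6 are above their mean in the 3 BJ libraries and in WT1 and below it in the 3 BK libraries and in WT3.

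Among precursor genes outside the 9, no genotype difference passed the test. Of 13 listed, 12 had a row and 11 were tested, with 0 at an unadjusted or adjusted p under 0.05 and a median log2 fold change of 0.0041, 7 of 11 being positive. The most abundant were Ptprz1 and Vcan, which progenitors of other kinds also express. Ptprz1, a receptor phosphatase, ran from 1204 to 1884 CPM in KO and from 921 to 2199 CPM in WT, with a log2 fold change of −0.19. Vcan, a matrix proteoglycan, was at −0.29. The largest difference was that of C1ql1, a secreted complement-like protein, at 0.64 (SE 0.32, edgeR adjusted p = 0.517), or 0.32 without KO1 and WT1, and Matn4 was at 0.31. Sox8, a relative of Sox10, had every BJ library above every BK library, and Vcan had every BJ library below every BK library, at 497 to 613 CPM against 710 to 796 CPM. Each was 1 of 11 in its direction, where 10.7% of all tested genes had the order of Sox8 and 3.5% that of Vcan.

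Signals to the lineage and brakes on its maturation, 22 genes of which 21 were tested, also held none past the adjusted threshold, with a median of −0.06. Pdgfa, the main ligand of PDGFRA, had 11.5 to 22.1 CPM over the 8 libraries and a log2 fold change of 0.04, and Pdgfc, another ligand, was at −0.12. The most abundant genes were the receptors Igf1r, at −0.11, and Erbb4, at −0.14. The largest differences were those of Erbb3, a neuregulin receptor, and Fgf2, a growth factor for precursors, at −0.48. Erbb3 was at 0.575, 0.549, 0.537 and 0.470 CPM in KO1 to KO4 and at 0.800, 0.685, 1.07 and 0.869 CPM in WT1 to WT4. Every WT library was above every KO library at this low level, the only tested gene of the list without overlap, and the log2 fold change was −0.71 (SE 0.22, edgeR adjusted p = 0.365). Id4, a helix-loop-helix inhibitor that holds precursors back, was at 0.39 (SE 0.12, edgeR adjusted p = 0.365). It was named after its value was seen, as the other gene of 2 at an unadjusted p under 0.05, where 10.6% of all tested genes passed. Its BJ libraries, at 44.3 to 48.6 CPM, all lay above its BK libraries, at 26.2 to 37.8 CPM. In this list 2 of 21 genes had that order and 2 of 21 the reverse, against 10.7% and 3.5% of all tested genes.

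KO1 and WT1 differed from the mean of the other libraries of their genotype in opposite directions for different genes of the lineage. The differences tended to be lower at higher GC content, but not gene by gene. In log2 CPM, KO1 minus the mean of KO2 to KO4 was −1.23 for Sox10, −1.05 for Cspg4 and −0.55 for Olig1, but 0.45 for Pdgfra and 0.82 for Bcas1. For Bcas1, KO1 at 23.4 CPM did not stand apart from KO2 at 21.9 and KO3 at 17.0 CPM, whereas KO4 was low, at 6.50 CPM. WT1 minus the mean of WT2 to WT4 was −1.18 for Sox10, −1.28 for Cspg4 and −1.21 for Olig1, but 0.47 for Pdgfra and 1.74 for Bcas1. Transcript GC content was 61.7% for Sox10, 60.8% for Olig1, 59.2% for Cspg4 and 58.2% for Olig2, against 47.7% for Pdgfra and a median of 50.3% over 13636 tested genes with a transcript in the annotation, 83.8% of those tested.

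Across the 9 genes, which are not replicates and share the same libraries, Pearson's r of GC content with this difference was −0.80 in KO1 and −0.83 in WT1. Across the tested genes it was −0.72 and −0.71. Bcas1, at 50.9% GC and so near the median, had the largest positive difference of the 9 in both libraries. The part of GC content in the lineage values was not tested. Without both libraries, as with them, 0 of the 9 passed the adjusted threshold.

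**Figure D5:**
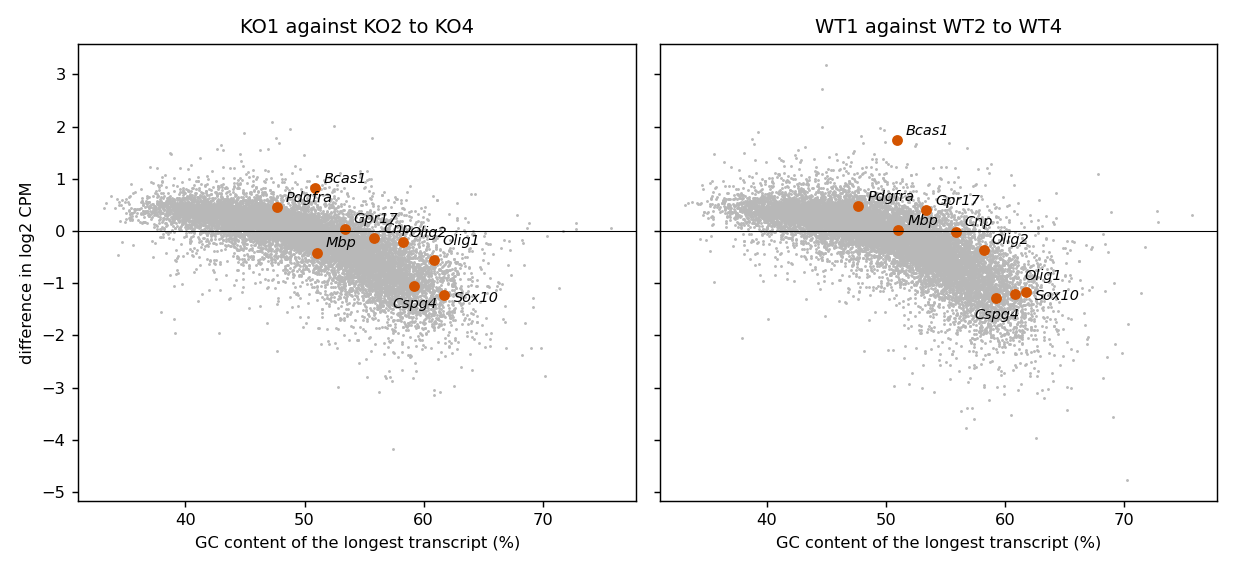
Difference in log2 CPM of KO1 from the mean of KO2 to KO4 (left) and of WT1 from the mean of WT2 to WT4 (right) against transcript GC content in percent, with tested genes in grey and the 9 lineage genes in orange. Sox10, Olig1 and Cspg4 lie low at high GC content in both panels, and Pdgfra and Bcas1 lie above 0.

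Genes whose pattern over the 8 libraries was most like that of Pdgfra were Lin9, Zc3h7a, Tmem165, Mll3 (now Kmt2c) and Pfkfb2, with a mean absolute difference in centred log2 CPM of 0.041 to 0.055 among 13700 genes of at least 1 CPM. For Olig2 they were Kif13b, Stk36, Tmed4, Ppp1cc and 1300018J18Rik, at 0.048 to 0.056. None of these genes is in the lists of lineage genes. Within the 9, the closest pairs were Cspg4 and Olig1, at 0.13, and Mbp and Cnp, at 0.14. Of the 13700 genes, Olig1 ranked 233 in closeness to Cspg4, and Cnp ranked 35 in closeness to Mbp. Other pairs lay far apart, such as Pdgfra and Cspg4, at 0.61, and Olig1 and Bcas1, at 1.14. The member nearest to Olig2 was Pdgfra, at rank 9135. The gene closest to Bcas1 was Tmem88b, at 0.29, a value added after seeing the data. Of the other 8 members, Gpr17 was nearest to Bcas1, at 0.53.

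Several of the 9 genes are also expressed by other cells, so markers of these were read in the same libraries. Fibroblasts and pericytes express Pdgfra or Cspg4. Fibroblast markers summed to 11.2 to 20.4 CPM in KO libraries and 5.58 to 34.0 in WT libraries, most of it Dcn, with Foxc1 and Twist1 at 0.201 CPM or less. Pericyte markers summed to 7.87 to 19.5 CPM in KO libraries and 4.26 to 17.1 in WT libraries, most of it Pdgfrb except in WT3. Schwann cell markers, which bear on Sox10, summed to 1.87 to 5.43 CPM in KO libraries and 2.72 to 5.62 in WT libraries.

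Ventral progenitors and interneurons bear on Olig1 and Olig2, and their markers summed to 181 to 323 CPM in KO libraries and 157 to 258 in WT libraries. Of 8 tested, 7 were positive, where 53.8% of all tested genes were, with a median log2 fold change of 0.40. In edgeR's test 0 passed the adjusted threshold and 0 an unadjusted p under 0.05. The 3 BJ libraries lay above the 3 BK libraries for 4 of 8, where 10.7% of all tested genes had this order. Gad1, the most abundant, was at −0.01, Dlx1 at 0.66 (SE 0.34) and Gsx2 at 0.60 (SE 0.42). WT3 stood low for both Dlx1 and Gsx2. It was at 14.5 CPM for Dlx1, against 40.6 to 81.9 CPM in the other libraries. For Gsx2 it was at 0.189 CPM, against 0.832 to 1.47 CPM. Nkx2-1 lay at 0.064 CPM or less in every library.

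Markers of projection neurons, the glutamatergic cells the study aimed at, summed to 4572 to 5345 CPM in KO libraries and 4701 to 5173 in WT libraries. Astrocyte markers summed to 907 to 1791 CPM in KO libraries and 978 to 1536 in WT libraries, and 4 of 8 had every BJ library above every BK library, as 5 of the 9 committed precursor genes had. The same order held for 1 of 10 projection neuron, 1 of 5 fibroblast, 0 of 6 radial glia and 0 of 8 microglia markers. It held for 0 of 3 pericyte and 0 of 3 Schwann cell markers, and for 10.7% of all tested genes. Radial glia markers summed to 836 to 1091 CPM in KO libraries and 840 to 1029 in WT libraries, and microglia markers to 16.3 to 68.3 CPM in KO libraries and 21.9 to 37.5 in WT libraries. The median log2 fold change of microglia markers was 1.36, with 7 of 8 positive. For astrocyte markers the median log2 fold change was 0.15, also with 7 of 8 positive. The highest was Gfap, an intermediate filament gene, at 1.94 (SE 1.12, edgeR adjusted p = 0.583), from 7.12 CPM in KO4 to 235 CPM in KO3. For projection neuron markers the median was −0.017, with 4 of 10 positive, and for radial glia markers 3 of 6 were positive. Of all these markers, Slc17a7, the vesicular glutamate transporter of projection neurons, was the only 1 at an unadjusted p under 0.05, at −0.32 (edgeR unadjusted p = 0.0185, adjusted p = 0.390). No gene of any of these lists of other cells passed the adjusted threshold between genotypes in edgeR's test. The part of these cells in the lineage values was not tested.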

How the data were processed

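Poly-A RNA of 8 libraries of cultured mouse neurons, 4 Nuak1 KO and 4 WT, was analysed from the deposited raw read counts per Ensembl gene. According to their methods, the authors trimmed reads with Cutadapt 1.10, discarded ribosomal RNA reads, aligned the rest to mm10 with STAR 2.5.3a and counted uniquely aligned reads with HTSeq-count 0.6.1p1 in union mode. The library kit is stranded, and the strand setting of the counting is not given in the sources used here. The read layout differs between the labels and the methods. Reads of close copies of a gene are lost in such unique counts.

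Identifiers were matched to symbols for 23260 of 32726 genes, and each count column to a sample by its label. CPM were computed from the deposited totals (31247078 to 67155004 counts). In R 4.3.3, counts were filtered with filterByExpr, scaled by TMM and tested with edgeR 4.0.16 (robust quasi-likelihood) for KO against WT over all 8 libraries, with 1 surrogate variable from svaseq (sva 3.50.0), after the study's use of SVA, and Benjamini-Hochberg adjustment at 0.05. Confidence intervals are at 95%. DESeq2 1.42.0, limma-voom (limma 3.58.1), other covariates, scalings and filters, each lane, and leaving out libraries were the alternatives, 23 in all. Similarity to Pdgfra or Olig2 was the mean absolute difference of log2 CPM (prior count 2) centred on the mean of each gene. Exon lengths, GC content and overlaps came from GENCODE vM1 on NCBIM37, and positions and promoters from RefSeq on GRCm38.p6, with no coordinates carried between builds.

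The members and the gene lists were chosen with earlier results of these data known. Genes named outside the 9 were, in each lineage list and in that of ventral progenitors, the 2 of highest mean CPM and the 2 of largest absolute log2 fold change, and any others were named after their values were seen. Intervals cover these libraries only. No protein sequences were used here, and Lhfpl3 and Pmp2, of the lists, were not analysed here. Some genes of the lists are not reported here, and the counts over those lists leave them out.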

Additional observations from a re-analysis of the deposited data

Results flagged for a closer look

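Each of the 9 genes was examined for a library far from the other 3 of its genotype, in 18 groups of 4 libraries. In 1 of the 18, where chance gives 0.9, the gap passed Dixon's 95% critical value. This was Sox10 in KO1, at 9.08 CPM against 21.3 to 21.9 CPM in the other KO libraries, a gap of 0.955 of the whole range of the 4. Sox10 in WT1, at 8.48 CPM, was as low, but WT2 at 16.1 CPM left a smaller relative gap in that genotype. Sox10 had the highest transcript GC content of the 9 genes, 61.7%, and its part in the gap was not tested.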

How the results depend on the processing

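Of the 9 genes, 0 passed the adjusted threshold under 22 of 23 alternatives, and 1 (Cnp, log2 fold change 0.56) on lane B alone, with the cause not tested. At an unadjusted p under 0.05 the 9 genes gave 5 on lane B (beside 1885 of all 16835 tested), 3 without KO4 (Gpr17, Bcas1 and Cnp), 1 without KO1 or WT1 (Olig1), WT3 (Cnp) or WT4 (Cspg4) and 0 under the other alternatives. With no surrogate variable, 410 of all 16272 tested genes passed that threshold. Among all tested genes 8 passed, against 4 with no surrogate variable, 4 with 2, 14 with lane as a term, 2 with the strain label as a term, 49 with no filter, 188 by DESeq2, 0 on lane A (where 96 passed an unadjusted p of 0.05), 99 on lane B and 3 without KO1 and WT1 together. Leaving out 1 library gave 3 to 91 genes, with 91 without WT3, 3 or 4 without KO1, KO2, KO3, WT1 or WT2, 11 without KO4 and 8 without WT4.

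With the replicate number as a block, 3 genes passed with and 3 without the surrogate variable, and 0 of the 9. The numbers were not taken to pair the libraries, because deviations of same-numbered libraries correlated at 0.80, 0.012, 0.25 and 0.0023. KO1 and WT1 correlated best with each other, and the other libraries did not correlate best with their own number.

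Directions turned as follows. Pdgfra was at 0.12 on lane A and at −0.13 to 0.032 leaving out 1 library. Olig2 was at −0.032 with 2 surrogate variables, −0.057 with the strain label, −0.18 on lane B, −0.053 without KO1 and WT1 and −0.062 to 0.080 leaving out 1 library. Mbp was at 0.071 with 2 surrogate variables, 0.013 with lane as a term, 0.043 by limma-voom, 0.53 on lane B, 0.19 without KO1 and WT1 and −0.14 to 0.19 leaving out 1 library. With the strain label Sox10 was at −0.021 and Gpr17 at −0.16, and on lane A Gpr17 was at −0.073, Bcas1 at −0.12 and Cnp at −0.13. Leaving out 1 library gave −0.27 to −0.097 for Olig1, 0.049 to 0.23 for Sox10, 0.12 to 0.39 for Gpr17, 0.47 to 0.87 for Bcas1 and 0.14 to 0.36 for Cnp. With 2 surrogate variables Olig1 was at −0.093, Sox10 at 0.059 and Gpr17 at 0.14. Cspg4 and Olig1 kept a negative sign in all 23. The lowest count of the 9 genes in any library was 263, for Bcas1 in KO4, so counting error was small beside the spread between libraries.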
